A study of Homo sapiens with 6 samples.

Results

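Laminins are the large glycoproteins that give basement membranes their first layer, and each molecule is a cross-shaped trimer of 1 alpha, 1 beta and 1 gamma chain. The trimer takes its name from the numbers of its chains, so that laminin-511 joins the products of *LAMA5*, *LAMB1* and *LAMC1*, and laminin-421 those of *LAMA4*, *LAMB2* and *LAMC1*. The 9 chain genes described here are *LAMA1*, *LAMA2*, *LAMA3*, *LAMA4*, *LAMA5*, *LAMB1*, *LAMB2*, *LAMB3* and *LAMC1*, out of 62703 genes listed for these cells. They were chosen with their levels in both genotypes already known, so the difference between genotypes helped to choose them. It is given as a description, with no p printed for any member. Members past a limit on p are counted below, and nothing is read from those counts. The chain genes *LAMB4* and *LAMC3* were outside that choice and are given beside the members.

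The RNA came from PANC-1, an established human pancreatic carcinoma line. DKK1-SE-/- cells, labelled DKK1-SE-KO, lack on both alleles the element e1 of a super-enhancer on chromosome 10, removed by CRISPR/Cas9 editing, and DKK1-SE+/+ cells, labelled WT, keep it. All DKK1-SE-/- samples came from 1 edited clone, so the deletion and other properties of that clone cannot be told apart. There were 3 samples of each genotype, labelled as biological replicates, with total expected counts of 21822314, 16475810 and 18803154 in DKK1-SE+/+ replicates 1, 2 and 3 and of 17359835, 20098086 and 17804764 in DKK1-SE-/- replicates 1, 2 and 3. An expected count is the number of reads an estimation program assigns to a gene, and TPM is the same reads per transcript length, scaled to a fixed total in each library.

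*DKK1*, the gene whose enhancer was edited, checks the labels. Its TPM was 229.2, 245.8 and 198.5 in the DKK1-SE+/+ samples and 66.8, 79.8 and 82.7 in the DKK1-SE-/- samples, without overlap, a log2FC of -1.45 (the fitted log2 ratio of DKK1-SE-/- over DKK1-SE+/+, with its standard error SE, 0.112; adjusted p = 6.16e-06 in edgeR's quasi-likelihood test, adjusted over all tested genes, lower in 3 of 3 samples). The cells carried the keratins of an epithelial line. The summed TPM of *KRT8*, *KRT18*, *KRT19*, *KRT7*, *EPCAM* and *CDH1* was 1847 to 1925 in DKK1-SE+/+ and 2662 to 3147 in DKK1-SE-/- samples, with *KRT8* the most abundant, while the 2 adhesion genes were low at mean TPM of 4.17 and 2.58 (*EPCAM*) and of 1.59 and 1.35 (*CDH1*). *VIM*, the mesenchymal intermediate filament gene, ranged from 3746 to 4522 in DKK1-SE+/+ and from 2534 to 2819 in DKK1-SE-/- samples. *KRT19* stood at 53.9 TPM on average without the deletion and 171.9 with it. *KRT19* and *VIM* thus differed along with the laminin chains, and their part in the laminin differences was not tested. Genes that mark other cells were near 0. The 5 fibroblast genes summed to at most 1.22 TPM in any sample with *PDGFRB* the most abundant and *FAP* at 0, the 3 acinar genes to at most 0.20 with *CPA1* the most abundant and *AMY2A* at 0, and the 3 endocrine genes to at most 0.33 with *GCG* the most abundant and *INS* at 0. Of 4 endothelial genes *KDR* alone reached a mean TPM of 1, and their sum was 2.12 to 2.57 in DKK1-SE+/+ and 0.44 to 0.58 in DKK1-SE-/- samples. Of 4 leukocyte genes *CD68*, which epithelial lines also transcribe, made up most of a sum of 41.1 to 47.0 in DKK1-SE+/+ and 66.4 to 68.9 in DKK1-SE-/- samples, while *CD14* had a mean of 0.47 and 1.36 and *PTPRC* never passed 0.04.

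Laminin chain transcripts of PANC-1 differed between genotypes mainly in *LAMA3*, *LAMA4* and *LAMB3*, which were higher in DKK1-SE-/- cells, and *LAMB2*, which was lower. *LAMA5*, *LAMB1* and *LAMC1*, the chains of laminin-511, were abundant in both. By the rule that a chain counts as detected at a TPM of at least 1 in all 3 samples of a genotype, 6 of 13 trimers considered had all their chain transcripts detected in DKK1-SE+/+ cells and 8 in DKK1-SE-/- cells. The 2 added were laminin-311 and laminin-321, which share the *LAMA3* chain. These counts depend on the limit and scale, being 2 and 4 at a limit of TPM 2 or 5, with laminin-411 and laminin-421 added, and 3 and 8 per listed length. These are transcripts, and protein chains or assembled trimers were not measured. In bulk RNA, a difference in how many cells express a gene and one in RNA per cell cannot be told apart.

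*LAMA3* encodes an alpha chain of epithelial laminins, which hold keratinocytes and other epithelia to their basement membrane. The gene (ENSG00000053747) spans chr18:23689453-23956222 on the plus strand of hg38 and has a long form and a shorter form that starts inside the gene. *LAMB3* (ENSG00000196878, chr1:209614870-209652425, minus strand) encodes a beta chain of epithelia. RefSeq start-site windows of 300 bases, with 250 bases before the start and 50 after, were at hand for 9 of the 11 chain genes above in 11 windows, and not for *LAMA1* and *LAMC3*. They were searched for TGANTCA, the letters of the AP-1 motif with N for any base, which read the same on both strands, because the study is about AP-1 at the enhancer. Of the 11 windows 2 held it, that of the shorter *LAMA3* form and 1 of the 3 of *LAMB3*, and among all 35116 windows of this length 7.71% did. By gene, 2 of the 9 had a match in at least 1 window, beside 9.37% of all 27305 genes with such windows. The window of *LAMA4*, which was also higher in DKK1-SE-/- cells, had no match. The stretches before the start that hold no annotated exon are printed for *LAMA3* and *LAMB3*, the members with the motif, and for *LAMA5*, the most abundant alpha chain, whose window has no match (RefSeq, GRCh38.p14). Capitals mark the motif.
LAMA3, chr18:23872770-23873019, plus strand: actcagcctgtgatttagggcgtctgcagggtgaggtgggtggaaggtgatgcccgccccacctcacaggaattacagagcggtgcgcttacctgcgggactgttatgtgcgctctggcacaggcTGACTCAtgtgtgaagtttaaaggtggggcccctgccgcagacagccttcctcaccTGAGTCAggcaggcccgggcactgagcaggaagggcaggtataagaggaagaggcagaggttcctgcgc
LAMB3, chr1:209651395-209651624, minus strand: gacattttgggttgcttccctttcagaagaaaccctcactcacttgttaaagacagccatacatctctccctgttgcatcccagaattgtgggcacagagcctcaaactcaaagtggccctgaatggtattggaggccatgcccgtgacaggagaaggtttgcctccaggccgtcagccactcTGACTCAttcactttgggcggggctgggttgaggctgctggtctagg
LAMA5, chr20:62367313-62367562, minus strand: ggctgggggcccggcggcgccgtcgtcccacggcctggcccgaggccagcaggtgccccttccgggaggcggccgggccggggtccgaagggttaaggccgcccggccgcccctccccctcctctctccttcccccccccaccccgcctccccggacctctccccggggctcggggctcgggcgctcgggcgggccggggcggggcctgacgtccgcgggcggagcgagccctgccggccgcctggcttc
The *LAMA3* stretch lies within an intron of the long form, and its motifs begin 125 and 69 bases before the start of the shorter form. The *LAMB3* motif begins 67 bases before its start, of which the last 20 bases are left out because another transcript's exon covers them. A match describes letters in a window and shows no bound factor, and gene-level counts do not say from which start the reads came.

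*LAMA3* was close to absent in DKK1-SE+/+ cells, with 1, 2 and 0 expected counts and a TPM of 0.01, 0.05 and 0. In DKK1-SE-/- cells it had 170, 181 and 197 counts and a TPM of 1.43, 1.67 and 2.73, so the genotypes did not overlap and all DKK1-SE-/- samples passed the detection level. Over the summed counts of 3 and 548, the ratio per normalised library was 198.5, with an exact Clopper-Pearson 95% interval of 67.6 to 965.4 that covers counting error only. *LAMA3* was chosen with this difference known, so the interval describes the counts and is no test. The fitted log2FC of 7.46 (SE 0.388) rests on the prior count that the fit adds and sets no bound. Its SE is derived from that value and is narrower than the counting error in the interval above. The log2FC was 8.39 without DKK1-SE+/+ replicate 2, which holds 2 of the 3 counts of its genotype, so 1 sample moves both the ratio and the log2FC.

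*LAMA4* encodes the alpha chain of laminin-411 and laminin-421, best known from vessel walls and mesenchymal tissue. The gene (ENSG00000112769) lies at chr6:112107931-112254939 on the minus strand. Its TPM was 2.67, 2.83 and 1.51 in DKK1-SE+/+ and 9.40, 11.5 and 15.6 in DKK1-SE-/- samples, so every DKK1-SE-/- sample was above every DKK1-SE+/+ sample. The expected counts behind them were 62, 50 and 43 against 288, 397 and 401, and the fitted log2FC was 2.92 (SE 0.171). On the TPM scale the ratio of means was smaller, 5.21 against 7.56 in the fit of counts. The length implied by count and TPM was 1403 to 2071 bases in DKK1-SE+/+ and 1942 to 2239 in DKK1-SE-/- samples.

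*LAMA5*, the alpha chain of laminin-511 and laminin-521 and the usual one of adult epithelia, was by far the most abundant alpha chain. Its TPM was 64.9, 60.5 and 80.3 in DKK1-SE+/+ and 81.4, 76.9 and 77.4 in DKK1-SE-/- samples, and the genotypes overlapped. The log2FC of 0.29 (SE 0.124) was -0.06 with an offset for GC content, so its direction depends on that correction. *LAMA5* is rich in GC at 66.4% of its transcript bases, and its span overlaps *ADRM1*.

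*LAMA1* and *LAMA2*, alpha chains of the embryo and of muscle and nerve, stayed below the detection level. *LAMA1* had 26, 11.6 and 12 counts in DKK1-SE+/+ and 29, 29 and 17 in DKK1-SE-/- samples, a log2FC of 0.73 (SE 0.388) with overlapping genotypes. Its TPM passed 1 in DKK1-SE-/- replicate 1 alone, at 1.18, although replicate 2 had the same count and a TPM of 0.31. Count and TPM imply transcript lengths of 1796 and 5709 bases in these samples, so the same count was divided by different lengths. *LAMA2* had 1 to 6 counts in DKK1-SE+/+ and 5 to 23 in DKK1-SE-/- samples and was the member that did not pass the low-count filter.

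Among the beta chains, *LAMB3* separated the genotypes most. Its TPM was 5.83, 6.32 and 7.06 in DKK1-SE+/+ and 41.5, 39.4 and 44.9 in DKK1-SE-/- samples, from 203 to 306 and from 1809 to 1880 counts. The lowest DKK1-SE-/- sample was above the highest DKK1-SE+/+ sample by more than any spread within a genotype, and the log2FC was 3.01 (SE 0.122). *LAMB2*, the beta chain of laminin-521, laminin-421 and laminin-321, went the other way. Its TPM was 103.2, 110.1 and 89.2 in DKK1-SE+/+ and 66.1, 46.6 and 62.4 in DKK1-SE-/- samples, without overlap, and its log2FC was -0.66 (SE 0.118). *LAMB1*, the more widely used beta chain, had a TPM of 94.7, 101.2 and 101.5 in DKK1-SE+/+ and 72.2, 72.0 and 101.2 in DKK1-SE-/- samples. DKK1-SE-/- replicate 3 stood with the DKK1-SE+/+ samples, and the log2FC was -0.13 (SE 0.120), or -0.28 without that replicate. *LAMB4* had no counts in 4 of the 6 samples and at most 4.15 in the others.

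*LAMC1*, the gamma chain of most laminins, had a TPM of 97.0, 94.99 and 102.8 in DKK1-SE+/+ and 84.4, 71.5 and 83.1 in DKK1-SE-/- samples. These did not overlap, but the distance was small beside the members above, with a log2FC of -0.21 (SE 0.0987). *LAMC3* was at 1.08, 1.06 and 1.80 TPM against 1.59, 1.26 and 1.57, with a log2FC of 0.21 (SE 0.217) that did not pass the test (adjusted p = 0.468 in edgeR's quasi-likelihood test). It was -0.10 with the GC offset and -0.03 without DKK1-SE-/- replicate 1. The antisense genes *LAMA5-AS1* and *LAMC1-AS1* had at most 4 counts in any sample, and *LAMA4-AS1* and the pseudogene *LAMB2P1* had 0. Libraries were stranded, but whether the counting used strand is not given in the sources used here. *LAMA5*, *LAMB1* and *DKK1*, and below *ITGB4*, *PLAU* and *POMK*, overlap a transcribed gene on the opposite strand, with which reads could be shared.

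**Figure D1:**
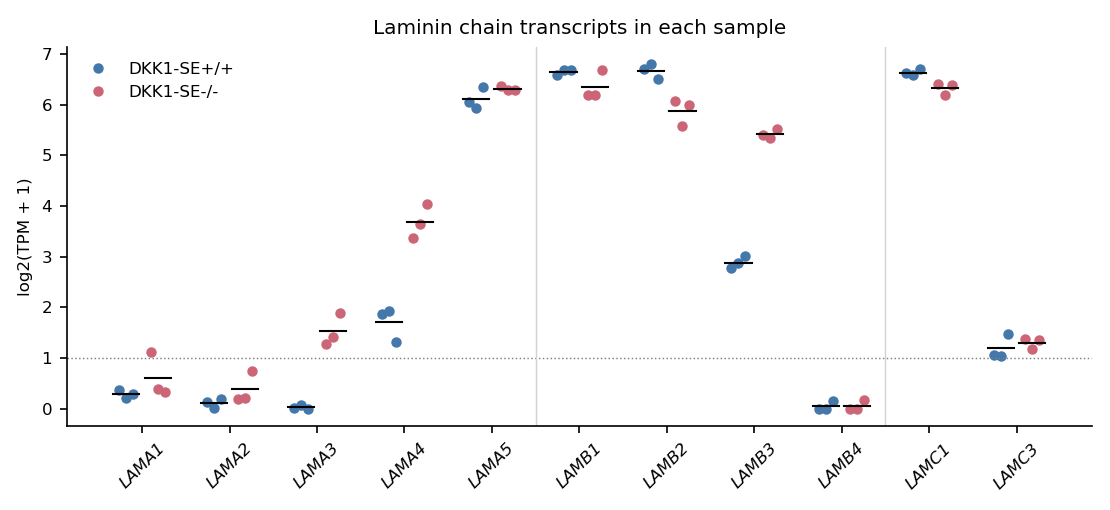
TPM of 11 laminin chain genes on a log2(TPM + 1) axis, with 1 point per sample, black lines at the mean of each genotype (n = 3) and the dotted line at the detection level of TPM 1. *LAMA3*, *LAMA4* and *LAMB3* were higher in every DKK1-SE-/- sample than in any DKK1-SE+/+ sample, and *LAMB2* and *LAMC1* were lower.

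Of the 9 members, 8 had enough counts to be fitted, and *LAMA3* passed that filter through the DKK1-SE-/- samples alone. At an adjusted p under 0.05, 3 members were past the limit as higher in DKK1-SE-/- cells (*LAMA3*, *LAMA4* and *LAMB3*) and 1 as lower (*LAMB2*). Over all 15179 tested genes 19.8% were past it as higher and 19.5% as lower. With DKK1-SE-/- replicate 3 left out, 4 members were past it as higher, now with *LAMA5*, and 3 as lower, in a fit where 7558 of 15618 genes were past it in either direction in place of 5972 of 15179. At an unadjusted p under 0.05 with an absolute log2FC of at least 1.2, the same 3 were higher and 0 lower, beside 4.96% and 3.7% of all tested genes. Without overlap in TPM there were 3 higher and 2 lower (*LAMB2* and *LAMC1*), beside 17.5% and 26.7%. Since the members were chosen on this contrast, nothing is read from these counts. The median log2FC was 0.51 over the 8 fitted members and 0.03 over all tested genes.

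**Figure D2:**
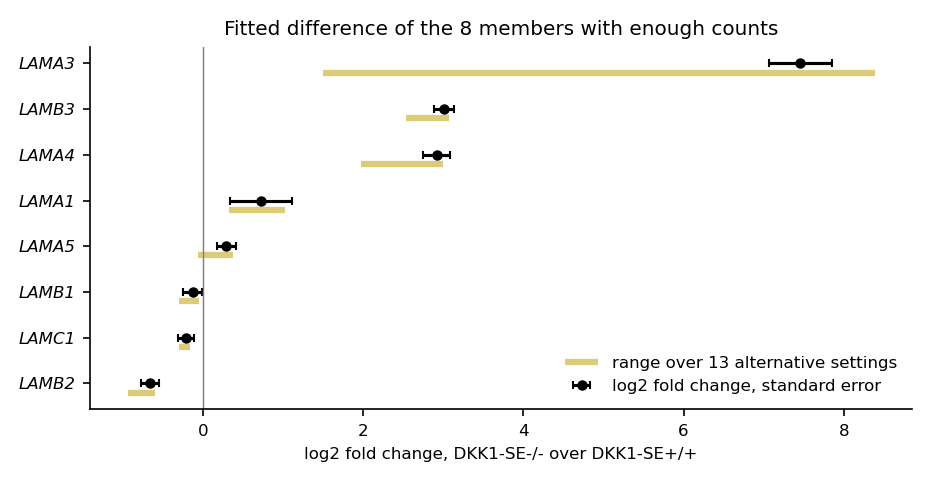
Log2FC of the 8 fitted members (points, with bars for 1 standard error) and its range over 13 alternative settings (yellow). The bar of *LAMA3* is narrower than its counting error. The range of *LAMA5* crosses 0, and *LAMA3* runs from 1.504, on the log2(TPM + 1) scale that compresses low genes, to 8.39.

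Levels of different chains can be compared only per length, and the length matters here. A TPM value rests on the mix of transcripts to which the reads of a gene were assigned, and count and TPM together imply its mean length. For *LAMB2* that length was 1904 to 2544 bases beside a listed gene length of 5692, for *LAMA4* 1403 to 2239 beside 7228, and for *LAMA5* 5655 to 6865 beside 11426. The TPM of chains with many reads on short transcripts is thus higher than reads over the full length would give. A second scale was therefore computed after seeing the data, in which each count is divided by the listed length and scaled to TPM on genes with 1 annotated transcript. By construction it equals TPM at the median of those genes, and which scale is nearer for the other genes was not tested.

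On the TPM scale the order in DKK1-SE+/+ cells began with *LAMB2* (100.8 ± 10.6), *LAMB1* (99.2 ± 3.85) and *LAMC1* (98.2 ± 4.07), SD with n = 3, and these 3 did not separate. Then came *LAMA5* (68.5 ± 10.4), *LAMB3* (6.40 ± 0.619) and *LAMA4* (2.34 ± 0.720), each below the one before in every sample. In DKK1-SE-/- cells *LAMB1* (81.8 ± 16.8), *LAMC1* (79.6 ± 7.07) and *LAMA5* (78.6 ± 2.46) came first without separating, followed by *LAMB2* (58.4 ± 10.4). *LAMB3* (41.9 ± 2.76), *LAMA4* (12.2 ± 3.13) and *LAMA3* (1.94 ± 0.692) were below it in that order. Per listed length, *LAMB2* in DKK1-SE+/+ cells was at 37.8 ± 2.14, below *LAMC1* (65.2 ± 0.896) and *LAMB1* (60.8 ± 0.996), and level with *LAMA5* (37.1 ± 4.03). In DKK1-SE-/- cells *LAMB3* (29.97 ± 2.87) was then above *LAMB2* (21.5 ± 2.06) in every sample, so the order of these 2 depends on the scale. On either scale the alpha chains together were scarcer than the beta chains in both genotypes, at a summed TPM of 71.2 ± 9.71 beside 206.4 ± 10.1 in DKK1-SE+/+ cells and of 93.6 ± 3.05 beside 182.2 ± 25.4 in DKK1-SE-/- cells.

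*LAMA5* made up most of the alpha class in both genotypes. It held 96.1% ± 1.38 of alpha-chain TPM in DKK1-SE+/+ and 84.0% ± 3.53 in DKK1-SE-/- cells (SD, n = 3), while *LAMA4* held 3.41% ± 1.38 and 12.96% ± 3.03, and *LAMA3* 0.031% ± 0.042 and 2.07% ± 0.676. Per listed length the share of *LAMA4* was smaller, at 1.36% ± 0.289 and 7.66% ± 1.67, with the same direction. *LAMB3* held 3.11% ± 0.395 of beta-chain TPM in DKK1-SE+/+ and 23.2% ± 1.71 in DKK1-SE-/- cells, as *LAMB2* went from 48.8% ± 3.199 to 32.0% ± 4.09 and *LAMB1* held 48.1% ± 2.77 and 44.8% ± 4.25, which overlap. Per listed length the share of *LAMB1* was 57.5% to 60.4% in DKK1-SE+/+ and 42.8% to 54.9% in DKK1-SE-/- samples, without overlap. So on the TPM scale the genotypes separated in every sample by the shares of *LAMA3*, *LAMA4*, *LAMA5*, *LAMB2* and *LAMB3*, and per listed length by that of *LAMB1* too.

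**Figure D3:**
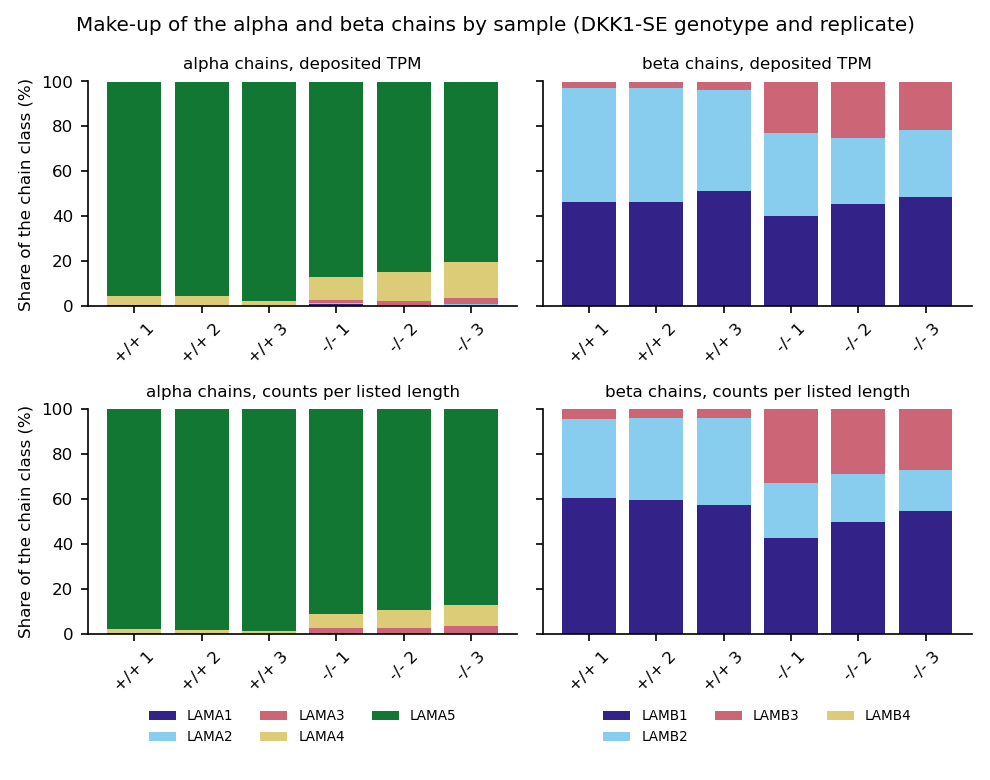
Share of each chain in its class (percent of the alpha or beta chains) for every sample, on deposited TPM (top) and on counts per listed length (bottom). *LAMB3* takes 21.5% to 24.9% of beta-chain TPM in DKK1-SE-/- samples and 2.86% to 3.57% in DKK1-SE+/+ samples.

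Laminin-511 and laminin-521 had every chain at high levels in both genotypes. The lowest chain of laminin-511 was at 60.5 to 80.3 TPM in DKK1-SE+/+ samples, where it was *LAMA5*, and at 71.5 to 77.4 in DKK1-SE-/- samples, and these ranges overlap. For laminin-521 the lowest chain changed from *LAMA5* in DKK1-SE+/+ cells to *LAMB2* in DKK1-SE-/- cells, at 60.5 to 80.3 and 46.6 to 66.1 TPM, which overlap. Per listed length its lowest chain was at 33.6 to 39.9 and 19.8 to 23.8, which do not overlap, and was *LAMB2* in DKK1-SE+/+ replicate 3 as well. Laminin-523, which needs the scarce *LAMC3*, was just past the detection level at 1.06 to 1.80 and 1.26 to 1.59.

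Laminin-311 and laminin-321 had *LAMA3* as their lowest chain in every sample. *LAMB1*, *LAMB2* and *LAMC1* were detected in both genotypes, so the detection of these 2 trimers in DKK1-SE-/- cells rests on a *LAMA3* TPM of 1.43 to 2.73, and it was lost at a limit of TPM 2. *LAMB3*, which is in neither of them, had 16.4 to 29.0 times the TPM of *LAMA3* in DKK1-SE-/- samples.

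Laminin-411 and laminin-421 were counted in both genotypes on the TPM scale, with *LAMA4* the lowest chain at 1.51 to 2.83 in DKK1-SE+/+ and 9.40 to 15.6 in DKK1-SE-/- samples. Laminin-423, which also needs *LAMC3*, was at 1.06 to 1.51 and 1.26 to 1.59. At a limit of TPM 2 or 5 laminin-411 and laminin-421 were counted in DKK1-SE-/- cells and not in DKK1-SE+/+ cells. Per listed length *LAMA4* was at 0.433 to 0.572 in DKK1-SE+/+ and at 2.91 to 4.18 in DKK1-SE-/- samples, so that 3 trimers (laminin-511, laminin-521 and laminin-523) were detected in DKK1-SE+/+ cells and the same 8 as before in DKK1-SE-/- cells. In DKK1-SE-/- samples *LAMA3* was then at 1.04 to 1.39 and *LAMC3* at 1.02 to 1.59, both only just past the limit at their lowest. The 5 trimers that need *LAMA1* or *LAMA2* (laminin-111, laminin-121, laminin-211, laminin-213 and laminin-221) were detected in neither genotype on either scale.

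**Figure D4:**
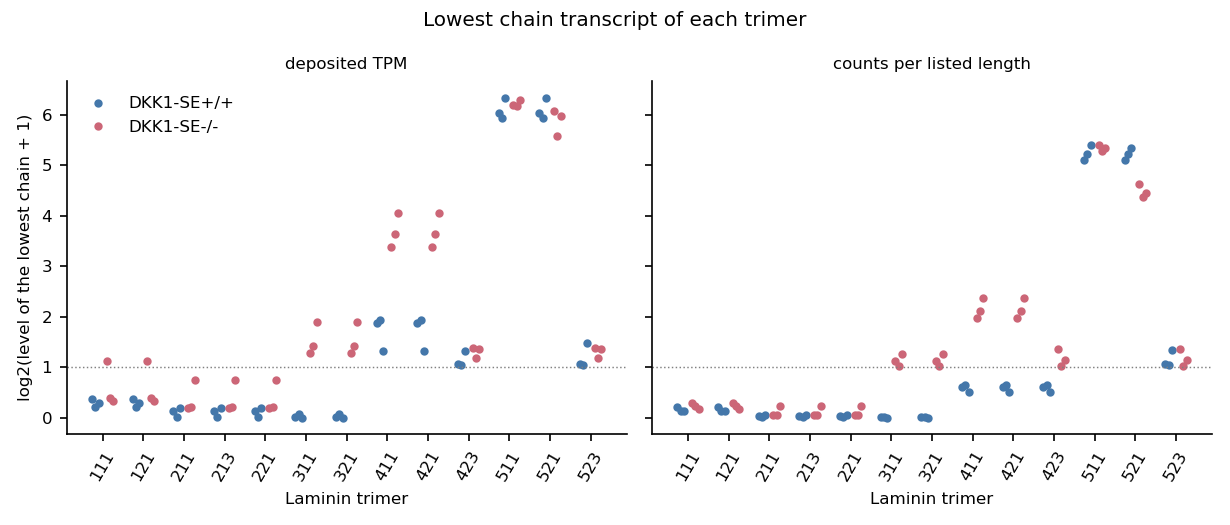
Level of the lowest chain transcript of 13 laminin trimers in every sample, as log2(level + 1), on deposited TPM (left) and on counts per listed length (right), with the dotted line at a level of 1. DKK1-SE-/- samples pass the line for the 2 trimers with *LAMA3*, where DKK1-SE+/+ samples lie near 0, and laminin-411, laminin-421 and laminin-423 pass it in DKK1-SE+/+ samples on the left scale alone.

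The pattern of *LAMA3*, the member with the largest fitted difference, was compared with 13136 tested genes with a mean TPM of at least 1, by the root mean square difference over the 6 samples of log2(TPM + 1) minus its DKK1-SE+/+ mean. The nearest were *PODXL* (0.131), a sialomucin, *ADGRF1* (0.131), an adhesion receptor, *IL1RL1* (0.133), the receptor of interleukin-33, *SLAIN1* (0.138), a microtubule protein, and *SH3TC1* (0.140). *PODXL* went from a TPM of 12.5 ± 0.649 to 34.8 ± 5.78 and *IL1RL1* from 0.12 ± 0.062 to 2.26 ± 0.374 (SD, n = 3), so the likeness is in log2 distance and not in fold. With log2(TPM + 0.1) in its place 0 of these 5 were among the nearest 5, so the list depends on that constant.

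Cells bind laminins through integrins, dystroglycan, syndecans and a few other receptors, and all 14 genes of a receptor list were tested. This list and those of partners and processing genes below were chosen with earlier results of these data known. Their counts and p-values are therefore a description and no independent test of the lists. Of these 4 were higher in DKK1-SE-/- cells, 5 were lower and 5 did not pass at an adjusted p under 0.05 (edgeR's quasi-likelihood test), beside 19.8% higher and 19.5% lower over all tested genes, with a median log2FC of 0.04 beside 0.03 over all genes. *ITGB4*, the beta subunit of the integrin of hemidesmosomes, rose from a TPM of 9.20, 15.4 and 14.3 to 32.2, 22.2 and 26.1, a log2FC of 1.09 (SE 0.149, adjusted p = 2.81e-04 in that edgeR test, 2.26e-02 at most over 13 alternative settings). It was higher in 3 of 3 samples. With smaller differences, *SDC4* (log2FC 0.69) and *SDC1* (0.39) also passed as higher, and *ITGA2* (-0.57), *RPSA* (-0.58) and *DAG1* (-0.36) as lower. The other lower receptors, *ITGA6* and *ITGB1*, are given below. The *DAG1* call was lost without DKK1-SE+/+ replicate 2 or 3, without DKK1-SE-/- replicate 2, and with the replicate block. *SDC2*, a syndecan, had 0.37, 0.96 and 1.12 against 1.32, 2.15 and 1.69 TPM and a log2FC of 1.29 (SE 0.414, adjusted p = 0.0294 in that edgeR test). Its call was lost when any of DKK1-SE+/+ replicates 1, 2 and 3 or DKK1-SE-/- replicates 2 and 3 was left out, with an adjusted p of at most 0.115 in these fits, and by limma on log2(TPM + 1) (0.130). The count of higher receptors was 2 without any 1 of the DKK1-SE+/+ samples or without DKK1-SE-/- replicate 2, and that of lower receptors was 2 without DKK1-SE+/+ replicate 2 and 3 without DKK1-SE+/+ replicate 3 or DKK1-SE-/- replicate 2. The calls over all genes also fell in these 4 fits, from 5972 to 4095 at the lowest and 4700 at the highest. By limma on log2(TPM + 1) 2 receptors were higher and 3 lower, with 3166 calls over all genes.

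*ITGA6*, *ITGB1* and *ITGA3* were chosen after their values were seen. The alpha partner of *ITGB4* and the more general beta subunit did not follow it. *ITGA6* had a TPM of 71.1, 82.8 and 74.4 in DKK1-SE+/+ and 41.4, 48.1 and 66.8 in DKK1-SE-/- samples (log2FC -0.41, SE 0.127, adjusted p = 0.0247 in the edgeR test), a call lost in 4 of the 6 fits that left out a sample, those without DKK1-SE+/+ replicate 2 or 3 or DKK1-SE-/- replicate 1 or 2, with an adjusted p of at most 0.111. It was also lost by limma (0.0718). *ITGB1* fell from 484.3, 481.2 and 443.4 to 170.0, 246.8 and 337.6, a log2FC of -0.77 (SE 0.166, adjusted p = 4.23e-03 in the edgeR test), lower in 3 of 3 samples. *ITGA3*, the most abundant integrin alpha chain of the list, was at 521.3 ± 31.9 and 457.8 ± 26.7 TPM (SD, n = 3), without overlap. It did not pass the test (log2FC -0.10, SE 0.117), nor in 11 of 13 alternative settings, but it passed as lower with the GC offset in both forms, so its call depends on that correction.

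Nidogens, perlecan, agrin and collagen IV join laminin in the basement membrane. This list too was chosen with earlier results known, and nothing is read from its counts. Of 22 such genes, 16 were tested, of which 5 were higher, 3 were lower and 8 did not pass in the same edgeR test, beside the same 19.8% and 19.5%, with a median log2FC of 0.23 beside the same 0.03. The first count was 3 without DKK1-SE+/+ replicate 1 and the second was 1 without DKK1-SE+/+ replicate 3, in fits with 4397 and 4700 calls over all genes. By limma on log2(TPM + 1) the counts were 2 higher and 4 lower, with 3166 calls over all genes. *COL7A1*, the collagen of anchoring fibrils, fell from a TPM of 24.9, 18.7 and 23.8 to 1.55, 3.67 and 1.23. Its log2FC was -3.69 (SE 0.127, adjusted p = 6.08e-08 in the edgeR test), in the direction opposite to *LAMA3* and *LAMB3* and in 3 of 3 samples. *SPARC*, a collagen-binding matrix protein, rose from 1.24, 0.79 and 1.14 to 7.15, 5.41 and 5.50 (log2FC 3.33, SE 0.242). *NTN1*, a netrin with a laminin-like end, rose from 0.18, 0.03 and 0.20 to 0.78, 0.73 and 0.77 (log2FC 2.47, SE 0.435). *PXDN*, the peroxidase that crosslinks collagen IV, had 1.60, 0.46 and 0.63 against 1.36, 1.97 and 2.02 TPM, which overlap, while its counts gave a log2FC of 1.58 (SE 0.185). The adjusted p of these 3 genes was 4.19e-06, 1.30e-03 and 1.05e-04 in the edgeR test, and that of *PXDN* was 0.174 by limma on log2(TPM + 1). *COL17A1*, a hemidesmosomal collagen singled out after its value was seen, was low in both genotypes at 0.770 ± 0.485 and 0.673 ± 0.235 TPM (SD, n = 3).

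Laminin chains are trimmed by proteases, and dystroglycan binds laminin through a sugar chain that a set of enzymes builds. The list of these genes was likewise chosen with earlier results known, and nothing is read from its counts. Of 24 genes in these steps 16 were tested, of which 3 were higher, 9 were lower and 4 did not pass, again beside 19.8% and 19.5%, with a median log2FC of -0.41 beside 0.03 over all genes. The higher count was 5 without DKK1-SE-/- replicate 3, where calls over all genes rose to 7558, and by limma on log2(TPM + 1) the counts were 1 higher and 5 lower, with 3166 calls over all genes. *MMP14*, a membrane protease that can cleave laminin, fell from a TPM of 4.31, 3.25 and 2.97 to 0.21, 0.30 and 0.28 (log2FC -3.76, SE 0.312). *MMP2*, a secreted gelatinase, fell from 45.8, 51.5 and 54.7 to 24.2, 19.1 and 22 (log2FC -1.01, SE 0.126). The plasminogen activators rose, *PLAU* from 444.4, 430.0 and 434.0 to 863.8, 796.9 and 841.5 (log2FC 1.10, SE 0.0993) and *PLAT* from 0.47, 0.74 and 0.81 to 1.71, 1.63 and 1.03 (log2FC 1.55, SE 0.309). *POMK*, the kinase of the dystroglycan sugar chain, fell from 14.7, 17.2 and 18.7 to 6.35, 5.40 and 8.76 (log2FC -1.13, SE 0.149). The adjusted p was 9.64e-06 for *MMP14*, 1.60e-04 for *MMP2*, 1.83e-05 for *PLAU*, 2.70e-03 for *PLAT* and 2.34e-04 for *POMK* in the edgeR test, each in 3 of 3 samples, and that of *PLAT* was 0.1001 by limma on log2(TPM + 1).

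**Figure D5:**
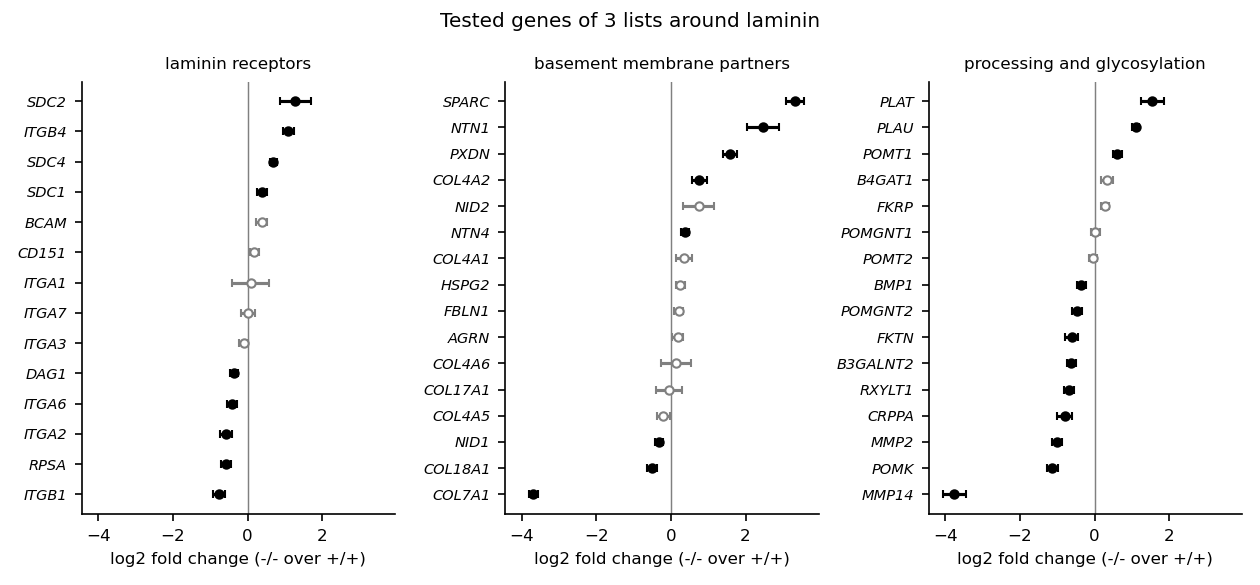
Log2FC of the tested genes of 3 lists (14 receptors, 16 basement membrane partners and 16 processing or glycosylation genes) with 1 standard error. Filled points passed at an adjusted p under 0.05, and *COL7A1* and *MMP14* lie farthest to the left.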

How the data were processed

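Stranded mRNA libraries of PANC-1 were prepared and sequenced at Majorbio, and the reads were processed on its cloud platform with hg38. The aligner, counting program and annotation release are not given in the sources used here. For each gene the authors deposited an expected count in every sample, without normalization, a TPM that they scaled within each library, and a gene length. The authors' comparison columns (fold change, log2 fold change, p-value and adjusted p-value) were not used. Counts that were not whole were rounded for the fits.

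The counts were filtered with filterByExpr (minimum count 10), normalized by TMM and compared between 3 DKK1-SE-/- and 3 DKK1-SE+/+ samples with edgeR 4.0.16 (R 4.3.3), without covariates, adjusting p over 15179 genes by Benjamini-Hochberg. The standard error is the absolute log2 fold change divided by the square root of F. Alternatives were DESeq2 1.42.0, RLE normalization, no filter beyond a total count of 1, a block for the replicate number, each sample left out in turn, and limma 3.58.1 (trend, log2(TPM + 1)) for genes with a mean TPM of at least 0.1. Offsets for GC content in 40 bins and counts per listed length were added after seeing the data. For the latter, the scale was the median over genes with 1 annotated transcript in GENCODE 44, a length over 3000 and a count of at least 300. Of the genes planned, 2 are not reported here, nor are results that need them. The members and gene lists were chosen with earlier results of these data known.

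Named genes were the laminin chain, antisense and pseudogene genes, *DKK1*, in each list the genes with adjusted p under 0.05 that differed by at least 1 on the log2 scale (at most 8 per list), and the 5 genes most like the member with the largest fitted difference. *ITGA6*, *ITGB1*, *ITGA3* and *COL17A1* were added after their values were seen, as were *SDC4*, *SDC1*, *ITGA2*, *RPSA* and *DAG1*. P-values measure the spread between samples, and all DKK1-SE-/- samples are of 1 clone. The fits were tested on simulated counts with 200 changed genes, of which edgeR recovered 200 with 13 false calls among 14900 genes. The changed genes were all well counted and differed by more than 1 on the log2 scale, so recovery was easy. They were also far fewer than the genes called in the data. The simulation therefore does not show how small differences, or genes near 0 counts such as *LAMA3*, are recovered. Python 3.11.15 and scipy 1.17.1 were used for the rest.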

Additional observations from a re-analysis of the deposited data

How the results depend on the processing

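Over 13 alternative settings *LAMA3*, *LAMA4*, *LAMB3* and *LAMA1* kept a higher and *LAMB2*, *LAMB1* and *LAMC1* a lower log2FC in DKK1-SE-/- cells. *LAMA5* turned to -0.056 with the GC offset and -0.059 with the GC offset and the replicate block. *LAMC3* turned to -0.098 and -0.091 in the same settings, and without 1 sample it ranged from -0.0315 to 0.39. The cause was not tested. Both offsets were chosen after seeing the data.

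All genes with an adjusted p under 0.05 numbered 5972, and 3166 by limma on log2(TPM + 1). Those past p 0.05 and a log2FC of 1.2 numbered 1314, with 2405 without the filter, where more genes were tested, and 559 by limma. Members that were lower numbered 1, with 2 under each GC offset (6184 calls over all genes, and 5486 with the block) and 1 to 3 without 1 sample, and nothing is read from these counts. By limma 2 receptors were higher and 3 lower, and 2 basement membrane partners were higher and 4 lower. In the same fit 1 processing gene was higher and 5 lower. Leaving out 1 sample gave 2 to 5 higher and 2 to 5 lower receptors, 3 to 6 higher and 1 to 3 lower partners, and 3 to 5 higher processing genes, in fits where 4095 to 7558 of all genes passed.

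Same-numbered samples of the genotypes did not deviate together (correlation across genes -0.12 to -0.07, against -0.05 to 0.15 for other pairs), so the numbers were not treated as a pairing. The labels do not say whether same-numbered samples were handled together, and these correlations cannot decide it. With the replicate block 4981 genes had an adjusted p under 0.05, and 3 members were higher and 1 lower. The *ITGA6* call was lost with the GC offset and the block.

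Trimers with all chains detected numbered 2 in DKK1-SE+/+ and 4 in DKK1-SE-/- cells at a limit of TPM 2 and again at TPM 5, and 3 in DKK1-SE+/+ cells per listed length. Leaving out any 1 sample gave 6 and 8. By CPM, which ignores length, *LAMA4* held 0.867% and 5.00% of its class in DKK1-SE+/+ and DKK1-SE-/- cells and *LAMB2* 37.3% and 23.0%. Per listed length *LAMA4* held 1.36% and 7.66%, *LAMB3* 4.01% and 29.5% and *LAMB2* 36.8% and 21.3%. In each the direction between genotypes was that of TPM. Depth limits *LAMA1*, *LAMA2* and, in DKK1-SE+/+ cells, *LAMA3*, which rest on at most 29 counts a sample.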
